A study of Homo sapiens with 12 samples.

Results

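Long internal exons of 500 nt or more were followed in a human prostate cancer cell model. They were taken as every exon event in the RNA-seq splicing table whose exon spans at least 500 nt, whatever its inclusion. This gave 2321 events, or 1791 distinct exons, of 114816 events and 75852 exons in all. Of these long events, 56 were also among the 2023 events of a RASL-seq table. The exons ran from 500 to 10893 nt with a median of 800 nt, against a median of 117 nt for all events. There were 1516 events of 500 to under 1000 nt, 562 of 1000 to under 2000 nt and 243 of 2000 nt or more. Just under the length limit, 59 measured events within 10 nt of it had a median inclusion level of 99.8%, and 48 within the first 10 nt above it had 99.6%.

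The study set PC3E cells, an epithelial derivative of the PC3 prostate cancer line, beside GS689.Li cells, a mesenchymal derivative of the same line, written GS689. Both are wild type in genotype according to the labels and received no treatment. Both grew in DMEM/F12 with serum, nonessential amino acids and 400 µg/ml G418, and were collected from 10 cm dishes after a night. Each line is a single derivative, so a difference between them belongs to these lines and cannot be told apart from other differences between them. Each line gave 3 libraries for RNA-seq and 3 for RASL-seq, a targeted assay in which probe pairs are ligated across chosen splice junctions and counted. The labels do not say that replicates came from separate cultures, so p-values measure the spread between these libraries.

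The RNA-seq table held counts for 2 sets of 3 libraries without naming the line of either set. Set 1 and set 2 were therefore not assigned to PC3E or GS689, and their gaps are given as description with no test. The line comparison rests on RASL-seq alone. Long events held between 1.88% and 2.04% of the counts of each RNA-seq library, whose table totals ran from 93842790 to 120853566. In RASL-seq they held 2.10% to 2.25% of the counts in PC3E and 1.83% to 1.92% in GS689, out of 615758 to 954120 counts per library. As a check of the labels, the event in VIM, the mesenchymal filament vimentin, had 130 to 191 RASL-seq counts per PC3E library and 2579 to 4090 per GS689 library. Events in LSR, an epithelial tricellular junction protein, had 73 to 84 counts in PC3E and 0 to 2 in GS689. None of the listed keratin, androgen receptor, leukocyte, endothelial or hepatocyte markers had a RASL-seq event. One library stood apart in each assay. PC3E replicate 2 differed from replicates 1 and 3 with a chi-square per degree of freedom of 6.31 and 4.40 in RASL-seq, where those replicates differed by 2.26. In RNA-seq, set 1 library 2 differed from libraries 1 and 3 with 9.03 and 5.98 over long exons, where those libraries differed by 3.06.

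Most human internal exons are short, and the splicing machinery is thought to recognise their ends as a pair across the exon. That pairing is thought to work less well as an exon grows, so long exons are often described as relying on strong splice sites and on bound splicing factors. Many long coding exons carry repeats or unstructured regions of large scaffold proteins, and several are included only in neurons or muscle. An exon can also be long because it keeps an intron that other transcripts remove.

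The splice junctions of a few long exons show what both assays read. These are the 2 long exons called between the lines by RASL-seq, in PTPRF and CCDC50, and 3 coding exons with wide gaps between the RNA-seq sets, in NIN, CSF1 and PRRC2B. Each line joins 20 bases of the neighbouring exon in lower case to 40 bases of the long exon in capitals, 5′ to 3′ on the transcript, from the GENCODE release 29 transcripts. RNA-seq counted reads across both inclusion junctions, RASL-seq the upstream junction only, and both counted the skipping junction.
PTPRF upstream junction: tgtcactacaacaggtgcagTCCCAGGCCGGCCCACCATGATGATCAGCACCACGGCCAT
PTPRF downstream junction: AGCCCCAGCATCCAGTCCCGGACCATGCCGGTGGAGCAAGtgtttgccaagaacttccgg
PTPRF skipping junction: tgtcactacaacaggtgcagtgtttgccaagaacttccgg
CCDC50 upstream junction: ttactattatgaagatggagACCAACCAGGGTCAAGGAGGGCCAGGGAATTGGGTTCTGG
CCDC50 downstream junction: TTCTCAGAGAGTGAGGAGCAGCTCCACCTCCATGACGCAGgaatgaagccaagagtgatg
CCDC50 skipping junction: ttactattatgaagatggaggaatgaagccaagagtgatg
NIN upstream junction: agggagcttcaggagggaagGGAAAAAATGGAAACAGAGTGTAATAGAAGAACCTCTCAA
NIN downstream junction: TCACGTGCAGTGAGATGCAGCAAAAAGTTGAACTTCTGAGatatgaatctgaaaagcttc
CSF1 upstream junction: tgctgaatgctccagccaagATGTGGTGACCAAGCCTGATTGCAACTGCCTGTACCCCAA
CSF1 downstream junction: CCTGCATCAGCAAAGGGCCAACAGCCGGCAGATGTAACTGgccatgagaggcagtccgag
PRRC2B upstream junction: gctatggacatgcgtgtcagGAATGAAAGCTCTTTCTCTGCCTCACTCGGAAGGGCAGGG
PRRC2B downstream junction: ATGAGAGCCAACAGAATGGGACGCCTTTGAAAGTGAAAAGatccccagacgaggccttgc

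On hg19, with positions counted from 1, these exons lie at chr1:44069282-44069860 on the plus strand (PTPRF), chr3:191092851-191093378 on the plus strand (CCDC50), chr14:51223210-51225348 on the minus strand (NIN), chr1:110465788-110466333 on the plus strand (CSF1) and chr9:134349841-134351922 on the plus strand (PRRC2B). All 5 are annotated as coding throughout, and their lengths are multiples of 3, so that skipping removes 193, 176, 713, 182 and 694 residues in that order without shifting the reading frame. Over distinct exons, 44.6% of the coding long exons had a length that is a multiple of 3, against 41.8% of coding exons of 50 to under 300 nt. Keeping the frame was thus about as frequent among long exons as among short ones.

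By their annotation the long exons were a mixed group. Among 1722 distinct long exons placed in 1 gene, 771 (44.8%) were coding throughout, 468 (27.2%) were partly coding and 483 (28.0%) held no coding base. Of exons of 50 to under 300 nt, 77.2% were coding throughout. An intron that other transcripts remove lay inside 467 of the long exons (27.1%), against 0.392% of the short ones. Of the long exons, 71.1% shared one edge with a shorter annotated exon, against 28.1%. Such a shared edge means that reads counted as inclusion of the long exon can come from the shorter one, since only junction reads were counted and the exon's body was not read.

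Exon ends differed slightly in the annotated sequence. The last 3 bases were CAG or AAG in 47.7% of the long exons and in 42.1% of exons of 50 to under 300 nt, and among coding exons in 51.2% and 42.0%. The last base was G in 85.4% and 79.7%. The first base was G in 46.1% and 46.0%. Median GC content was 51.9% against 49.6%. The median upstream and downstream intron lengths were 2962 and 2557 nt around long exons, against 2404 and 2197 nt. These shares are descriptions of the annotation without a test.

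Long exons were mostly included in these cells, and the term skipped exon describes the kind of event rather than its level. The inclusion level is the share of included transcripts after correcting counts for the effective lengths of 202 for inclusion and 101 for skipping. An event counted as measured with a mean of at least 20 length-corrected counts per library in each set and at least 1 count in every library. Of 1846 measured long events, 1561 (84.6%) had a median inclusion level of 95% or more over the 6 libraries, 226 (12.2%) lay between 5% and 95%, and 59 (3.20%) lay at 5% or less. For exons of 50 to under 300 nt, 80.8% of 80658 measured events were at 95% or more and 6.12% at 5% or less.

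**Figure D1:**
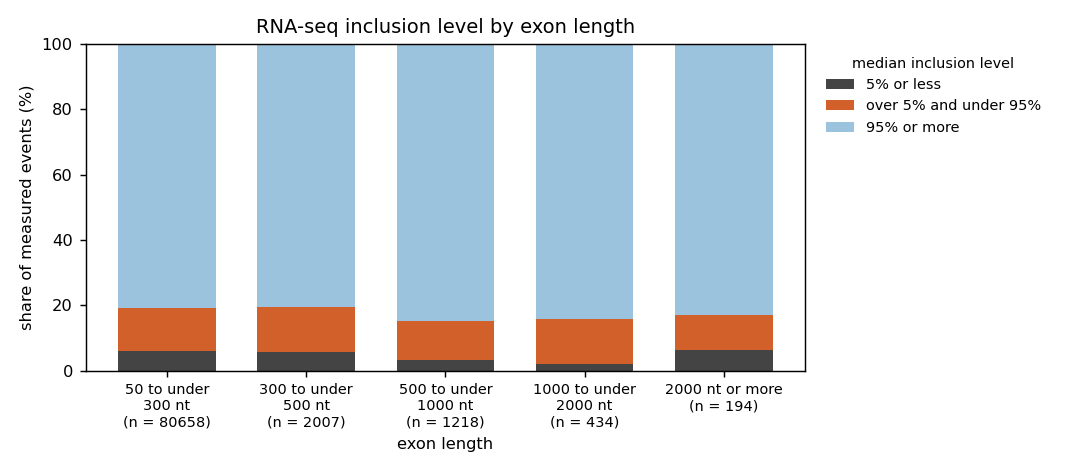
Share of measured RNA-seq events (vertical axis, percent) at 3 ranges of median inclusion level, by exon length (horizontal axis); n is the number of measured events. The share at 95% or more is 80.8% at 50 to under 300 nt and 84.9%, 84.3% and 83.0% in the 3 classes of 500 nt or more.

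The share at 95% or more varied with the inner introns and shared edges. Long events with an annotated intron inside the exon were at 95% or more in 91.0% of 479 cases, and those without one in 82.0% of 1302. Where neither edge was shared with a shorter exon, the share was 81.3% of 477, beside 80.8% of short exons. The short exons were not split by shared edges, so the 2 shares are not of like sets. Coding long exons were at 95% or more in 87.9% of 863 measured events, and exons with no coding base in 80.6% of 427. Exons whose length is a multiple of 3 were less often that high (80.4% of 721) than those of other lengths (87.2% of 1125). Both groups hold coding and non-coding exons, so this is not a comparison of reading frames. Between 1000 and 2000 nt 2.07% of events lay at 5% or less, and from 2000 nt 6.19% (12 of 194).

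The rarely included long exons had a few very large coding exons among them, though coding exons were a minority. The 59 events at 5% or less came from 56 distinct exons in 52 named genes, of which 10 exons were coding throughout and 5 of those were of 2000 nt or more. Those 5 include overlapping versions of the RTN3 exon. Among measured long events, 1.27% of the coding ones lay at 5% or less, against 5.85% of those with no coding base. NACA, a subunit of the nascent polypeptide-associated complex whose long form is a muscle protein, has a 5589 nt exon that encodes 1863 residues. Its inclusion level was 0.00425%, 0.0104% and 0% in set 1 and 0%, 0.0277% and 0% in set 2, beside 7186 to 14476 skipping reads per library. The long exon was thus close to absent in all 6 libraries. RTN4, whose long form is the neurite outgrowth inhibitor Nogo-A, has a 2400 nt exon of 800 residues at 0.0669% to 0.409%, and at 6.31% to 19.4% in an event with the same exon, another skipping junction and fewer counts. Its relative RTN3 has a 2331 nt exon of 777 residues, lying between 0.557% and 2.35% in set 1 and between 2.94% and 4.76% in set 2. In RASL-seq the same RTN3 event had 348 to 540 skipping counts per library and 1 inclusion count in all 6 libraries together. In another event with the same RTN3 exon and few reads, RNA-seq gave 80.6% to 100%. In RNA-seq the low level thus holds against the main skipping junction and not against every one. In RASL-seq that other event had 0 inclusion counts beside 4 to 15 skipping counts per library, too few to be tested. The assays disagree on this event, and the reason was not tested.

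ANK3, the ankyrin-G scaffold whose giant exon is included in neurons, had its 7812 nt exon of 2604 residues at 0% to 1.00% in the 6 libraries. MAP4, a microtubule-associated protein, has a 3384 nt exon that gave 11.4%, 1.34% and 7.88% in set 1 and 5.76%, 3.74% and 5.07% in set 2. Set 1 alone spanned the values of set 2. The neighbouring MAP4 exon of 1224 nt had a set median of 97.5% to 100% in each of its 4 events. MAPT, the neuronal microtubule protein tau, had its 753 nt exon at 3.70% to 14.0%, from only 14 to 75 counts per library. LMO7, a junction-associated protein, had a 720 nt coding exon at 0% to 0.231% in RNA-seq, and in RASL-seq 0 inclusion counts beside 79 to 381 skipping counts per library. Over the pooled libraries this allows a share of up to 0.283% (3 counts of the total), a limit that covers counting error only.

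At the other end stood very long exons with inclusion levels near 100%. The longest, the 10893 nt exon of MUC5B, a gel-forming mucin, encodes 3631 residues and was at 99.4% to 100% in all 6 libraries. ANKRD11, a chromatin regulator with ankyrin repeats, had its 6578 nt exon, which has an annotated intron inside, at 99.5% to 100%. Junction reads at the edges of that exon do not show whether its inner intron was kept. The 5916 nt exon of SON, a splicing protein of nuclear speckles, encodes 1972 residues and was at 97.8% to 100% in RNA-seq. In RASL-seq SON inclusion was 99.9% ± 0.0689 (SD, n = 3) in PC3E and 99.8% ± 0.179 (SD, n = 3) in GS689. The SON exon is not among the 6 longest exons, while the ANK3 exon described above is. HIVEP1, FSIP2 and ANK2, also among the 6 longest, had 0 to 30 counts per library and were not measured.

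Long exons that were spliced both ways in the same library were few. Exons of 45 genes lay between 20% and 80% in both sets. Among the most counted was MRPL55, a mitochondrial ribosomal protein gene, whose 585 nt exon with no coding base and an inner intron was at 53.7%, 79.0% and 64.2% in set 1 and 52.8%, 56.8% and 52.1% in set 2. RPAIN, an importer of replication protein A, had a 2241 nt exon at 44.1% to 60.1% and 39.3% to 48.4%. Both exons lie outside the coding sequence, while those that follow hold coding bases. NDUFV3, a subunit of mitochondrial complex I with a short and a long form, had its 1095 nt exon at 46.0%, 36.3% and 52.3% in set 1 and at 51.3%, 47.7% and 49.7% in set 2. In RASL-seq it was 35.6% ± 2.59 (SD, n = 3) in PC3E and 38.2% ± 4.42 (SD, n = 3) in GS689, with an adjusted p of 0.789 from the quasi-binomial model moderated with limma. The lines overlapped in RASL-seq, and so did the sets in RNA-seq. ANKRD17, an ankyrin repeat protein, had its 753 nt exon at 40.1% to 50.3% in set 1 and 49.6% to 51.7% in set 2. NCK2, an SH2 and SH3 adaptor, had a 722 nt coding exon at 71.0% to 79.6% and 68.6% to 78.0%. PHF14, a PHD finger protein, had a 788 nt coding exon at 73.6% to 76.9% and 76.0% to 81.4%, and MRM2, a mitochondrial RNA methyltransferase, a 923 nt exon at 24.1% to 31.7% and 32.7% to 34.3%. The MRM2 sets did not overlap. MKI67, the proliferation marker Ki-67, had a 1080 nt exon at 73.7% to 83.3% and 70.1% to 78.6%, and these sets overlapped. The 4755 nt exon of ASPM, a spindle pole protein, lay at 69.6% to 85.2% and 78.1% to 83.6%.

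Between the lines, RASL-seq called 2 of 33 tested long exons, and both were lower in GS689: the 579 nt exon of PTPRF and the 528 nt exon of CCDC50. Calls needed an adjusted p under 0.05 over all 1124 tested events, and line means at least 5 points apart. Of all tested events 5.69% were called in either direction and 3.56% were called lower in GS689, so the share of the long exons called (6.06%) was near the background. The lines did not overlap in 9 of the 33 (27.3%), against 23.6% of all tested events. In GS689 15 of the 33 exons were higher and 18 lower, with a median absolute difference of 2.59 points against 2.14 for all events. The other 23 long events had a rarer form under 10 counts (17), a mean under 10 counts (5) or a library without counts (1).

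PTPRF encodes the receptor tyrosine phosphatase LAR, a transmembrane protein of cell adhesions. Inclusion of its 579 nt exon in PC3E was 100%, 98.7% and 98.8%, from 62, 74 and 83 inclusion and 0, 1 and 1 skipping counts. In GS689 it was 75.4%, 66.7% and 71.1%, from 43, 16 and 27 inclusion and 14, 8 and 11 skipping counts. The highest GS689 library lay below the lowest PC3E library. The mean fell from 99.2% ± 0.732 (SD, n = 3) to 71.1% ± 4.39 (SD, n = 3), a log2 odds ratio of -5.39 with an adjusted p of 0.000651 from the quasi-binomial model moderated with limma. Every alternative kept the PTPRF call, with adjusted p from 1.93e-05 to 0.00905, and without PC3E replicate 2 it was 0.000489. The RNA-seq sets were also apart, at 99.5%, 99.8% and 99.9% in set 1 and 94.3%, 93.8% and 91.9% in set 2. Set 2 minus set 1 was -6.01 points, and GS689 minus PC3E in RASL-seq was -28.1 points.

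CCDC50 encodes a coiled-coil protein that binds ubiquitin. Its 528 nt exon was included at 98.7%, 99.8% and 99.5% in PC3E RASL-seq, from 921 to 1307 inclusion counts and 2 to 14 skipping counts. In GS689 it was at 89.2%, 94.0% and 85.1%, from 40 to 109 inclusion counts and 7 to 11 skipping counts. The inclusion junction had far fewer counts in GS689, while skipping counts lay in a similar range in both lines. The mean fell from 99.3% ± 0.610 (SD, n = 3) to 89.4% ± 4.43 (SD, n = 3), with a log2 odds ratio of -4.01 and an adjusted p of 0.0065 in the same limma-moderated model. The call was lost without GS689 replicate 1 (adjusted p = 0.0752) and without GS689 replicate 3 (adjusted p = 0.0573), and held without PC3E replicate 2 (0.00202).

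RNA-seq read the CCDC50 exon at another level. Set 1 gave 20.1%, 35.2% and 24% and set 2 gave 1.57%, 1.16% and 1.09%, a difference of set medians of -22.8 points. The sets did not overlap, and the exon was near absent in set 2. Over the 6 libraries of each assay, the median was 10.8% in RNA-seq and 96.3% in RASL-seq. The assays thus disagree on the level of this exon, and the reason was not tested.

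**Figure D2:**
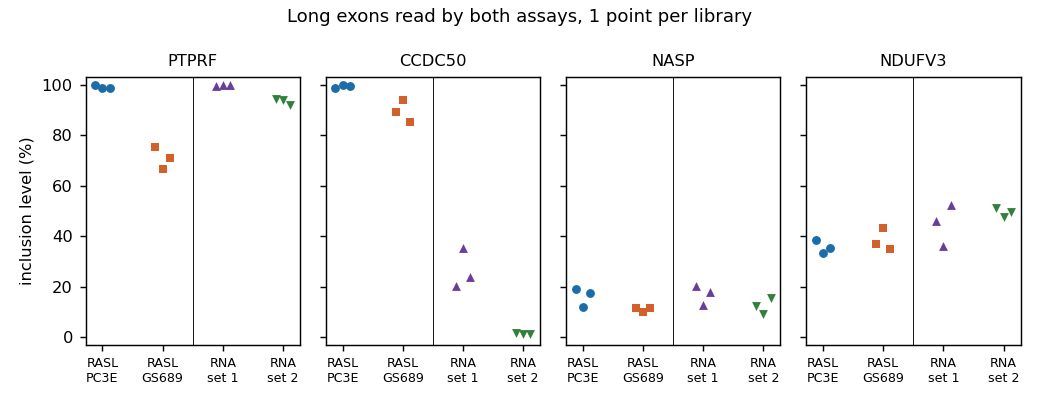
Inclusion level (vertical axis, percent) of 4 long exons in each library, with RASL-seq by line to the left of the vertical rule and RNA-seq by unassigned set to its right. PTPRF and CCDC50 are lower in GS689 than in PC3E by RASL-seq, and NASP and NDUFV3 were not called.

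Several more long exons separated the lines in every library without passing the test. The 759 nt exon matched to both ANKHD1 and the ANKHD1-EIF4EBP3 readthrough, at chr5:139876105-139876863 on hg19, was at 49.2%, 39.2% and 41.5% in PC3E and 59.4%, 53.7% and 50% in GS689. All 3 GS689 libraries were higher than the PC3E libraries, and the adjusted p was 0.0534 in the limma-moderated model (0.0185 to 0.293 over the alternatives). In RNA-seq the sets were 81.7%, 70.3% and 72.9% against 82.5%, 82.1% and 84.3%, also apart, by 9.58 points, or 5.21 points without set 1 library 2. NASP, a histone chaperone with a long testis form, had its 1017 nt exon of 339 residues at 19.1%, 11.8% and 17.4% in PC3E and 11.6%, 9.79% and 11.7% in GS689. The limma-moderated test gave NASP an adjusted p of 0.126 (0.000195 to 0.403 over the alternatives). The lowest value came without PC3E replicate 2, the library that stood apart. That library, at 11.82%, lay only just above GS689 replicate 3 at 11.73%.

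Some exons without overlap rested on few RASL-seq counts. MATR3, a nuclear matrix RNA-binding protein, had its 1089 nt exon at 65%, 52.4% and 75% in PC3E and at 50%, 27.3% and 25% in GS689, from 1 to 13 inclusion counts per library. FOXO3, a forkhead transcription factor, had 44.4%, 62.5% and 50% against 70.6%, 70% and 84.6%, from 4 to 12 inclusion counts. PALLD, the actin-bundling protein palladin, was at 15.4% ± 7.69 (SD, n = 3) and 35.7% ± 2.15 (SD, n = 3) from 1 to 4 inclusion counts per library. None of these passed, with limma-moderated adjusted p of 0.337, 0.331 and 0.354. RNA-seq read the same events far higher, MATR3 at 98.7% to 99.9%, FOXO3 at 93.9% to 100% and PALLD at 84.2% to 97.2%. SNAP47, a SNARE protein with 432 or more inclusion counts per library, also had lines without overlap, at 95.8% ± 1.09 (SD, n = 3) and 93.2% ± 1.77 (SD, n = 3), with a limma-moderated adjusted p of 0.239.

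Tested long exons whose lines overlapped include the following. MBNL1, the muscleblind splicing regulator, had its 963 nt exon at 77.9% ± 2.54 (SD, n = 3) in PC3E and 71.3% ± 4.25 (SD, n = 3) in GS689, with a limma-moderated adjusted p of 0.447. RBM6, an RNA-binding protein, had a 1279 nt coding exon at 76.1% ± 9.17 (SD, n = 3) and 74.2% ± 5.65 (SD, n = 3). The 691 nt exon shared by RBM4 and the RBM14-RBM4 readthrough was at 42.6% ± 8.80 (SD, n = 3) and 38.8% ± 2.55 (SD, n = 3). PRKRIP1, a nuclear double-stranded RNA-binding protein, had a 561 nt exon at 83.9% ± 6.07 (SD, n = 3) and 75.5% ± 2.70 (SD, n = 3). These 4 exons were not called, with limma-moderated adjusted p from 0.351 to 0.849.

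Exons of transcription factors and other regulators were also uncalled. MAZ, a zinc finger factor, had its 851 nt coding exon at 87.4% ± 5.48 (SD, n = 3) and 81.3% ± 5.71 (SD, n = 3). ZNF687, a zinc finger protein, had an 869 nt exon with no coding base at 33.8% ± 3.74 (SD, n = 3) and 35.5% ± 6.54 (SD, n = 3), and its RNA-seq level was 20.3% to 44.9%. LRR1, a substrate receptor of a ubiquitin ligase, had its 722 nt coding exon at 39.2% ± 4.34 (SD, n = 3) and 43.1% ± 3.09 (SD, n = 3), and PCNX4, a membrane protein, its 742 nt exon at 51.6% ± 11.9 (SD, n = 3) and 49.9% ± 3.42 (SD, n = 3). RNF167, a ubiquitin ligase, had a 507 nt exon at 89.0% ± 12.3 (SD, n = 3) and 82.4% ± 13.1 (SD, n = 3), and a 1598 nt exon matched to no gene was at 71.2% ± 8.09 (SD, n = 3) and 73.5% ± 15.6 (SD, n = 3). These exons had limma-moderated adjusted p of 0.461 or more. CDYL, a chromodomain protein, ZNF638, an RNA-associated zinc finger protein, STK35, a kinase, ZDHHC5, a palmitoyltransferase, MLLT6, a leukemia fusion partner, and DZIP3, a ubiquitin ligase, were all between 96.5% and 99.7% in both lines. CDS2, a phospholipid synthesis enzyme, had its 601 nt non-coding exon at 0.400% ± 0.138 (SD, n = 3) and 0.709% ± 0.690 (SD, n = 3).

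**Figure D3:**
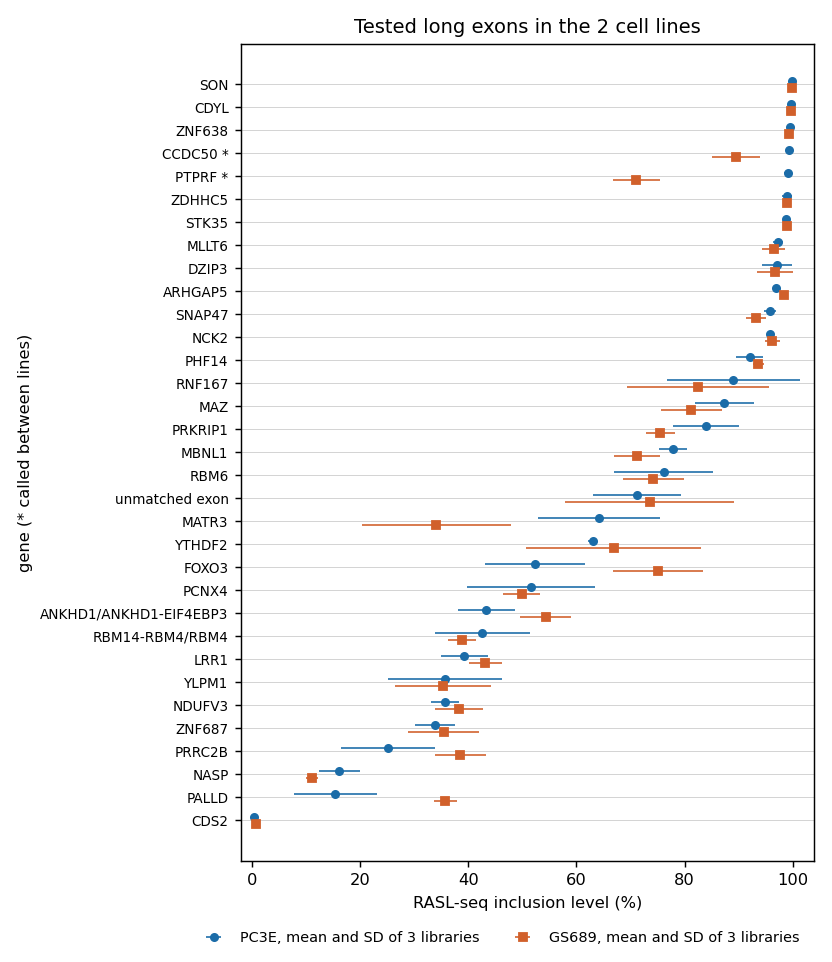
Mean inclusion level with SD over 3 libraries (horizontal axis, percent) for the 33 long exons tested by RASL-seq, ordered by the PC3E mean; 2 names joined by a slash are genes that share the exon. PTPRF and CCDC50, marked with an asterisk, lie lower in GS689, and most other pairs of means lie within the drawn SDs.

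VCAN, the matrix proteoglycan versican, has long exons that encode its chondroitin sulfate attachment regions. Its 2961 nt exon had 7, 2 and 6 inclusion beside 92, 38 and 70 skipping counts in the PC3E RASL-seq libraries. GS689 had 0 inclusion counts and 0, 1 and 2 skipping counts, too few for a level. In bulk RNA, fewer cells that express a gene and less of its RNA per cell cannot be told apart.

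In RNA-seq, 40 long exons had sets that did not overlap and whose medians differed by at least 5 points. That is 2.17% of the 1846 measured long events, against 2.72% of all 89587 measured events. Of the 40, 23 were higher in set 2 (all events 1.16%) and 17 lower (all events 1.56%). They lay in 39 named genes and 1 exon shared by 2 genes, 11 differed by 20 points or more, and the median absolute gap was 12.4 points. Coding exons made up 14, partly coding exons 11 and exons with no coding base 14. Among events between 5% and 95%, 14.6% of the long ones were apart, and 17.4% of all. Without set 1 library 2, 38 of the 40 kept a gap of 5 points in the same direction, MRM2 (3.75 points) and PPP1R13B (3.89 points) falling short.

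**Figure D4:**
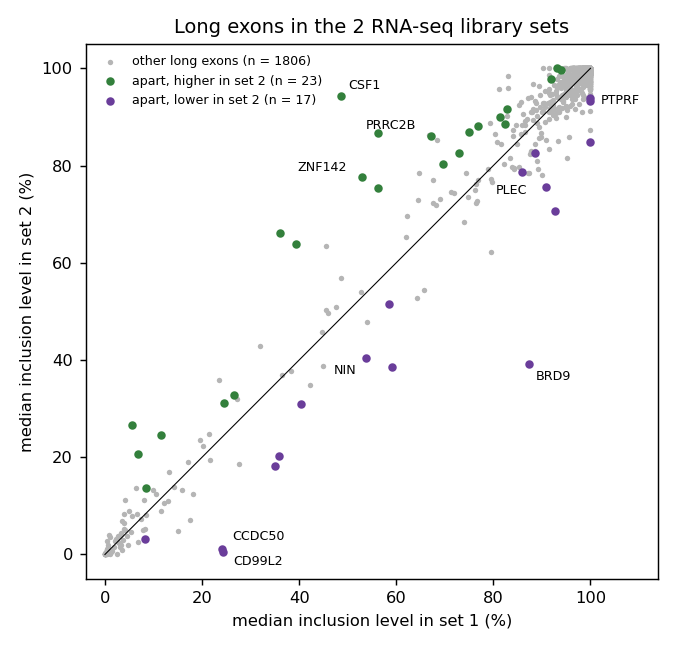
Median inclusion level in set 1 (horizontal axis, percent) against set 2 (vertical axis, percent) for 1846 measured long events; the line marks equal levels, and the sets are not assigned to lines. Most points lie near full inclusion, while 23 coloured points lie higher and 17 lower in set 2.

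The widest gap among exons higher in set 2 was that of CSF1. CSF1, the macrophage colony-stimulating factor, had its 546 nt exon at 58.3%, 29.2% and 48.7% in set 1 and 97.8%, 90.2% and 94.3% in set 2, a gap of 45.6 points from 29 to 137 counts per library. The sets were far apart, and each set 1 library had 10 to 23 skipping reads, against 1 to 6 in those of set 2. SPHK2, a sphingosine kinase, had a 1046 nt coding exon at 66.7%, 40.5% and 56.2% against 96.6%, 75.3% and 69.2%. CAMK2G, a calcium/calmodulin-dependent kinase subunit, had a 687 nt exon with no coding base at 8.86%, 3.13% and 6.71% against 20.6%, 22% and 18.4%. This exon was the rarer form in both sets. SENP5, a SUMO protease, had a 1544 nt exon that holds part of its coding sequence at 81.0%, 68.4% and 76.8% against 92.6%, 88.1% and 87.4%.

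Further exons were higher in set 2. PRRC2B, an RNA-binding translation protein, had its 2082 nt exon at 78.3%, 67.2% and 59.9% in set 1 and 86.0%, 87.1% and 84.1% in set 2. Its RASL-seq level was 25.1% ± 8.70 (SD, n = 3) in PC3E and 38.5% ± 4.66 (SD, n = 3) in GS689, with an adjusted p of 0.373 in the limma-moderated model. ZNF142, a zinc finger protein, had its 600 nt exon of 200 residues at 60.7%, 37.1% and 52.9% against 69.9%, 77.7% and 86.5%. WDR20, a cofactor of ubiquitin proteases, had a 1260 nt exon of 420 residues at 71.4%, 56.2% and 45.8% against 92.6%, 86.7% and 79.4% in 1 event. In another event with the same WDR20 exon, which has more counts, it was at 78.0% to 89.6% and 73.1% to 83.3%, and the sets overlapped. For the events with sets apart in these 3 genes, the highest set 1 library lay below the lowest set 2 library. SREK1, an SR-related splicing regulator, had a 2868 nt exon with an annotated intron inside at 9.77% to 13.6% in set 1 and 23.7% to 24.8% in set 2. CFAP410, a cilia protein, had a 1744 nt exon at 35.4% to 42.9% and 61.1% to 67.7%, from 26 to 67 counts per library. SLC38A6, an amino acid transporter, had a 637 nt exon at 29.6% to 51.2% and 61.8% to 72.9%. Neither of these exons holds a coding base. In another event with the same SLC38A6 exon, RNA-seq gave 77.8% to 100% over all 6 libraries and RASL-seq 98.9% to 100%. The other exons among the 12 widest rises, in the non-coding gene AC026412.1 and in SPECC1, a cytoskeletal adaptor, had gaps of 21.1 and 11.8 points, the latter 7.24 points without set 1 library 2.

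Among exons lower in set 2 was that of PLEC, the single exon of the cytoskeletal list that was apart. PLEC, the cytolinker plectin, had its 3381 nt exon, which encodes 1127 residues of the rod, at 92.9%, 78.0% and 90.9% in set 1 and 73.1%, 76.3% and 75.6% in set 2. Set 1 library 2 had 2924 counts for it, against 8183 and 9559 in the other set 1 libraries, and lay nearest to set 2. The difference of set medians was -15.3 points, and -16.3 points without that library. PXN, the focal adhesion protein paxillin, had an 844 nt exon with an annotated intron inside at 92.7%, 78.4% and 93.7% against 70.7%, 62.0% and 72.0% in 1 event. In another PXN event with the same exon and a different skipping junction, the level was at most 0.109% in every library, so the 2 events differ in what they compare the exon with. KIAA1217, a scaffold protein, had a 1599 nt coding exon at 100% in all 3 libraries of set 1, with 0 skipping reads, and at 90.1%, 80% and 84.8% in set 2. CD99L2, a leukocyte migration membrane protein, had a 1299 nt exon at 19.4%, 24.3% and 28.3% against 0.565%, 0.241% and 0.521% in its most counted event.

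NIN encodes ninein, which anchors microtubules at the centrosome. Its 2139 nt exon was at 65.9%, 53.8% and 53.0% in set 1 and at 44.3%, 40.5% and 38.3% in set 2. All set 2 libraries were lower, with a difference of -13.3 points, while the 503 nt exon of the same gene stayed at 99.2% to 100%. BRD9, a bromodomain subunit of a chromatin remodeller, had the widest fall among the named exons. Its 513 nt exon, which has no coding base and an annotated intron inside, was at 75.6%, 87.3% and 89.0% against 36.4%, 39.2% and 42.9%, a gap of -48.04 points. THTPA, a thiamine triphosphatase, had a 562 nt exon at 57.0% to 61.3% and 34.8% to 51.6%. P4HA2, a collagen prolyl hydroxylase subunit, had a 525 nt exon with no coding base at 24.6% to 40.8% and 16.2% to 20.1%. The remaining exons of the 12 largest falls, in LINC01001, PREPL and ST6GALNAC4, had gaps of -15.4, -9.42 and -7.35 points.

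**Figure D5:**
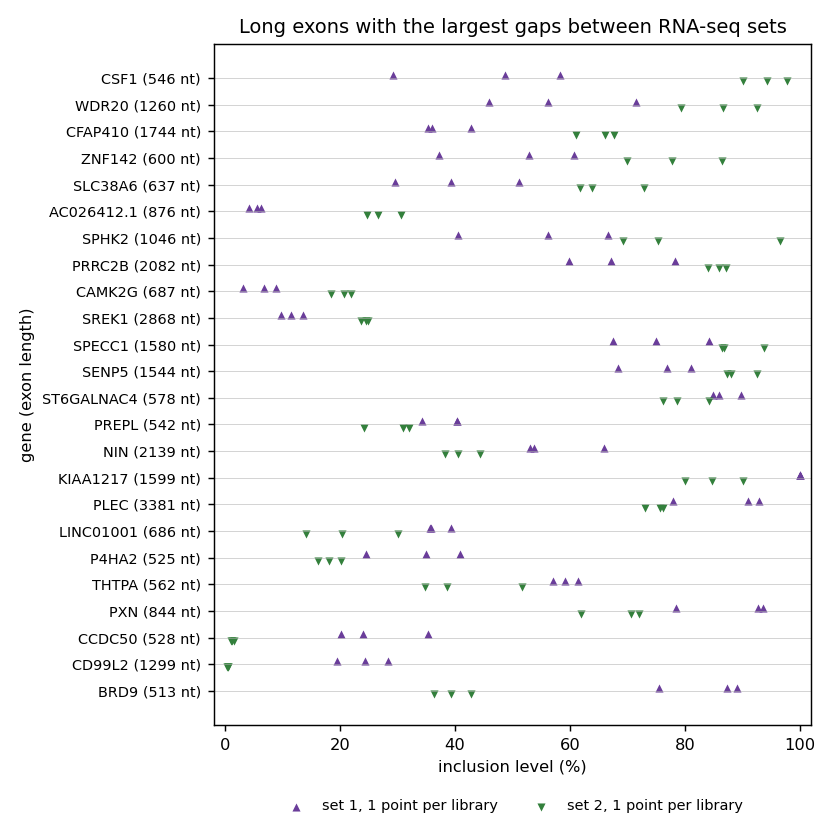
Inclusion level in each RNA-seq library (horizontal axis, percent) for the 12 long exons with the widest rises and the 12 with the widest falls from set 1 to set 2, with exon length beside the gene. The sets do not overlap in any of the 24 rows, which is how the exons were chosen, and CSF1 and BRD9 have the widest gaps.

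Grouped by gene role, the lists had few events with sets apart, as had long exons (2.17%) and all events (2.72%). At these list sizes the counts are near that background and single out no group. Of 9 measured events in DNA repair and replication genes, 0 had sets apart, and the median inclusion was 100%. The exception in level was a 792 nt exon of MDC1, a DNA damage adaptor, with 71.5% to 82.5% in set 1 and 76.6% to 86.8% in set 2 in 1 of its events. Of 24 measured events in chromatin and transcription genes, among them KMT2A, KMT2D, NSD1, SETD2 and BPTF, 0 were apart and 2 lay under 95%, both in MGA, a MAX-interacting transcription factor. Of 20 in centrosome and mitosis genes 1 was apart, NIN, and of 21 in cytoskeletal genes 1, PLEC. ENAH, an actin regulator, was one of the cytoskeletal genes with a partly skipped exon, its 795 nt exon lying at 73.7% to 84.0% and 74.3% to 79.3%.

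Of 7 measured events in RNA-binding and splicing genes 1 was apart, PRRC2B, and the exons of its relative PRRC2C, of 2259 and 904 nt, were at 99.7% to 100%. Of 3 events in receptor tyrosine phosphatase genes 1 was apart, PTPRF, while the 582 nt exon of the related PTPRS was at 98.9% to 100% in both of its events. Of 60 in zinc finger genes 1 was apart, ZNF142, and 14 lay under 95%. ZNF530 had its 2142 nt exon near even splicing, at 43.5% to 49.6% in set 1 and 41.5% to 49.0% in set 2. Of 4 in adhesion and epithelial-mesenchymal genes 0 were apart. In that group DSP, the desmosomal plakin, had its 2295 nt exon at 99.5% to 100%, and CTNND1, the catenin p120, its 536 nt exon at 99.7% to 100%. Over all long exons 40 of 1846 were apart.

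The median difference between the 2 assays was small over long exons, with a tail of lower RASL-seq readings. Many of these exons lay near full inclusion in both assays, so the small median says little about exons spliced both ways. At intermediate levels, RASL-seq and RNA-seq read 93.2% and 76.9% for PHF14 and 48.8% and 63.7% for PCNX4. They read 34.2% and 34.4% for ZNF687 and 77.4% and 78.5% for PRKRIP1. Over 48 long events with enough counts in both, the median difference of RASL-seq minus RNA-seq was -0.696 points and Pearson's r across events was 0.778, against 0.872 over 1566 events of any length. Events are not independent replicates, and both values of an event come from the same cell lines. RASL-seq was lower by 20 points or more in 9 of the 48 (18.8%) and in 13.2% of all events, and higher by as much in 2 (4.17%) and 6.90%. YLPM1, a nuclear protein phosphatase regulator, read 32.5% in RASL-seq and 88.8% in RNA-seq for its 2118 nt exon, and PRRC2B read 33.7% and 81.2%. MATR3 read 51.2% and 99.5%, FOXO3 66.2% and 99.5%, and PALLD 28.2% and 92.4%. YTHDF2, a reader of methylated RNA, read 63.5% and 90.3% for a 1584 nt exon. Besides CCDC50, the exon higher in RASL-seq was that of NCK2, at 96.0% against 74.7%. The line-to-line tests compare each exon with itself in RASL-seq and do not use the RNA-seq level.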

How the data were processed

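RNA of PC3E and GS689 cells was read by RNA-seq and RASL-seq, 3 libraries per line and assay. The authors deposited 1 table of junction counts per assay, and per the file headers each cell holds several whole numbers. Per the submitters' processing notes, STAR 2.5.2a, kallisto 0.43.0 and build hg19 were used, with no role given. No per-sample column was left out (0 unused). RASL-seq events sharing an upstream junction had identical inclusion counts in 13 of 13 pairs, and those sharing a downstream junction in 0 of 24, so inclusion was read at the upstream junction. All RASL-seq events lie on the plus strand, and empty cells were read as 0.

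Long exons were named by structure, without converting coordinates: chromosome, strand, exon length and annotated splice sites at both flanking distances in 1 gene of GENCODE release 29, on another build. Of 2321 long events 2234 (96.3%) matched 1 gene, 30 several and 57 none. Matching on the opposite strand gave 0, and with an intron shifted by 7 nt 5. Without the hg19 genome, sequences came from GENCODE transcripts.

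Each RASL-seq event was fitted by logistic regression with quasi-binomial errors and tested by F, with dispersions moderated by limma 3.58.1 in R 4.3.3 and kept at 1 or above. Adjustment was by Benjamini-Hochberg over all tested events. Tested events averaged 10 or more counts per library, with 1 or more in each and 10 or more of the rarer form in all. Other steps used Python 3.11.15 and pandas 2.3.3. The model was also run on simulated counts, and the outcome is not reported here. RNA-seq sets name no line and were only described, with sets apart where no library overlaps and medians differ by 5 points. Named exons were the tested RASL-seq exons, the 12 widest rises and falls between sets (1 exon per gene), the 6 longest, the most counted at 20% to 80%, and members of gene lists, the latter mostly by counts. Some of these exons are not reported here. The exons at 5% or less were named after their values were seen. Members, lists and tests were chosen with earlier results of these data known. Reads carry no molecular identifiers in the tables, and a junction can count in several events.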

Additional observations from a re-analysis of the deposited data

How the results depend on the processing

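The RASL-seq count of 2 called long exons stayed between 2 and 3 with limma on the log2 ratio at either pseudocount, with other count filters and with no minimum difference. It was 1 with a minimum difference of 10 points, where CCDC50 dropped out at -9.89 points, and ranged from 1 to 3 when each replicate was left out. Replicate numbers did not pair the libraries, with correlations of their deviations of 0.0371, 0.00378 and 0.0340, and with the replicate number as a block 4 long exons were called, the added ones being ANKHD1 (adjusted p = 0.0277) and NASP (adjusted p = 0.00578) in the limma-moderated model. Over all events, the 64 calls also rose with the replicate block, to 88. They became 28 with limma on the log2 ratio and a pseudocount of 0.5, and 44 to 81 when a replicate was left out.

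The 40 long exons with RNA-seq sets apart (2.17%) became 23 (1.25%) with a gap of at least 10 points. Of exons of 1000 nt or more, 15 of 628 measured events (2.39%) were apart, a share near the main one. The count was 58 to 83 (3.13% to 4.50%) when 1 library was left out, which by construction makes overlap less likely. Shares over all events are not given for the wider gap or the left-out libraries, so these counts have no background beside them. The median inclusion level of 99.97% stayed between 99.88% and 100% under every alternative run. The depth of RASL-seq limits what can be seen for exons with fewer than 10 counts of the rarer form, and no RNA-seq gap can be given a line.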
